A study of Mus musculus with 44 samples.

Results

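A set of 9 protein-coding genes, none of them a gene of the interferon response, was followed across cultures of mouse CD4 T cells that lack or carry microRNA-150 (miR-150). They are Nol4l, Ppm1l, Slc20a1, Pgp, Desi1, Aqp11, Adamts20, St3gal5 and Pitpnc1, which makes 9 of the 55416 genes counted and 9 of the 21873 genes that passed the filter on low counts. They had been picked because their counts differed between knockout and wild-type or knock-in cells, so their differences between genotypes are given here as a description and support nothing. The effect of the culture condition, averaged over genotypes, is another contrast and was tested, but it includes the knockout libraries on which the genes were picked. Its p-values are therefore not independent of the choice where a gene also differed between genotypes. In the text, fold changes within genotypes stand beside the mean for some culture comparisons only, and St3gal5 has group means in CPM instead. The plot of fold changes between cultures shows each gene within each genotype, except Adamts20 within KI where Treg enters.

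Spleens of C57BL/6NTac mice gave naive CD4 T cells by sorting, and wells of 150000 cells were stimulated for 3 days through CD3 and CD28. Treg cultures also received TGF-beta 1 with an antibody to interferon-gamma, Th1 cultures received interleukin-12 with an antibody to interleukin-4, and Th0 cultures received the stimulus alone. In each condition the mice were miR-150 knockout (KO), miR-150 knock-in (KI) or miR-150 wild type (WT). The labels name the KI and KO alleles no further, give no age, and do not say whether libraries with different numbers came from different animals, so p-values measure the spread between these libraries. There were 44 libraries in 9 groups, with 4 in Th0 KI and 5 in every other group.

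MicroRNAs are short RNAs that guide a repressor complex to short matching sites, mostly in the 3′ untranslated regions (UTRs) of messenger RNAs, and lower the stability and translation of those messages. miR-150 is abundant in resting lymphocytes and is known for repressing Myb, a transcription factor of lymphocyte development. The genes followed here do unrelated work. Slc20a1 encodes a sodium-driven importer of inorganic phosphate, and Aqp11 a water channel of intracellular membranes. Ppm1l encodes a metal-dependent protein phosphatase of the endoplasmic reticulum, and Pgp the phosphatase that clears phosphoglycolate. Pitpnc1 encodes a soluble phosphatidylinositol transfer protein, and St3gal5 the sialyltransferase that makes GM3, the first ganglioside. Desi1 is named as a desumoylating isopeptidase, Adamts20 is a secreted metalloproteinase that cleaves the matrix proteoglycan versican, and Nol4l is a relative of the nucleolar protein gene NOL4 whose own work is poorly known.

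A search for TTGGGAG, the DNA match to bases 2 to 8 of miR-150-5p, found it in the longest annotated 3′ UTR of 1 of the 9 genes. Ppm1l held 2 copies, shown here because they are the only matches among these genes, with the match in capitals and 8 bases on each side (GRCm38, GENCODE release M21, plus strand).
Ppm1l site at chr3:69554369-69554391: tgcactggTTGGGAGttcaagca
Ppm1l site at chr3:69555774-69555796: tgccaaacTTGGGAGaatgttac
The second match is followed by A, which makes it the longer form of the site, and the first is not. The 3′ UTR of Ppm1l was 7628 bases long, and among 256 tested genes whose 3′ UTR was of like length 58.2% held the motif, so a match in a UTR of this length is common. Over all 14528 tested genes with an annotated 3′ UTR, 16% held it. For the other genes the search shows only that these letters were not in the annotated window, which ran from 771 bases in Slc20a1 to 4761 bases in Pitpnc1.

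Library totals ran from 60815821 to 137415965 counts, so Slc20a1 had 10300 to 21649 counts per library, while Aqp11 had 12 to 329 counts and Adamts20 0 to 181. The hairpin gene Mir150 had 0 counts over 15 KO libraries, 7 over 14 KI libraries and 6 over 15 WT libraries, at most 2 in any library; poly(A) libraries do not measure the mature microRNA, so these counts check the labels weakly. Myb averaged 202 ± 78.6 CPM (counts scaled to a common library size) in Treg KO, 86.7 ± 5.67 CPM in Treg KI and 94.2 ± 20.6 CPM (SD) in the 5 Treg WT libraries. In Th1 it averaged 130 CPM in KO, 63.5 CPM in KI and 81.6 CPM in WT, and KO libraries overlapped WT libraries. In Th0 the averages were 66.5 CPM in KO, 42.2 CPM in KI and 54.2 CPM in WT, and KO overlapped both. Summed CD4 T cell markers were at 835.6 CPM or more in every library. The 4 B cell markers summed to 8.33 to 84.7 CPM in Treg KO, 59.4 to 366 CPM in Treg KI and 7.55 to 104.7 CPM in Treg WT, and to at most 687.6 CPM in any library, and their part in the differences between genotypes was not tested. A set of 4 Treg libraries stood apart from the other 11: Treg KO 2, Treg KI 3, Treg WT 3 and Treg WT 4 had Foxp3, the defining transcription factor of regulatory T cells, at 47.7 to 159 CPM, against 376 to 596 CPM in the others. Treg KO 2, Treg KI 3 and Treg WT 4 also held the most Cd8a of their groups, at 73.1, 318 and 443 CPM, a marker that a CD4 sort should remove. Ifng, the signature cytokine of Th1 cells, stood at 78.7 to 846 CPM in those 4 libraries, while the remaining 11 held 0.622 to 8.88 CPM. Among the other 11, Foxp3 stood at 376 to 431 CPM in KO, 479 to 559 CPM in KI and 519 to 596 CPM in WT, so it also differed with genotype, and its part in the differences between genotypes was not tested. Calls of the 9 genes between genotypes in Treg cultures are given with and without these libraries. So are the fold changes of Ppm1l between genotypes and of Pitpnc1 and Pgp between Treg and Th0. Most other Treg fold changes are given only with these libraries included.

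Per kilobase of exon, the genes spanned nearly 3 orders of magnitude over the 44 libraries. Slc20a1 averaged 27.6 CPM per kb and Desi1 18.2, followed by Pgp at 11.9 and Pitpnc1 at 11.5. Ppm1l averaged 1.05 CPM per kb, Nol4l 0.80 and St3gal5 0.78, and the lowest were Aqp11 at 0.073 and Adamts20 at 0.037. Neighbours in this order overlapped in range across libraries except Pitpnc1, at 4.78 CPM per kb or more, and Ppm1l, at 3.16 or less. All further levels are in CPM, not divided by length, and are compared only within a gene.

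**Figure D1:**
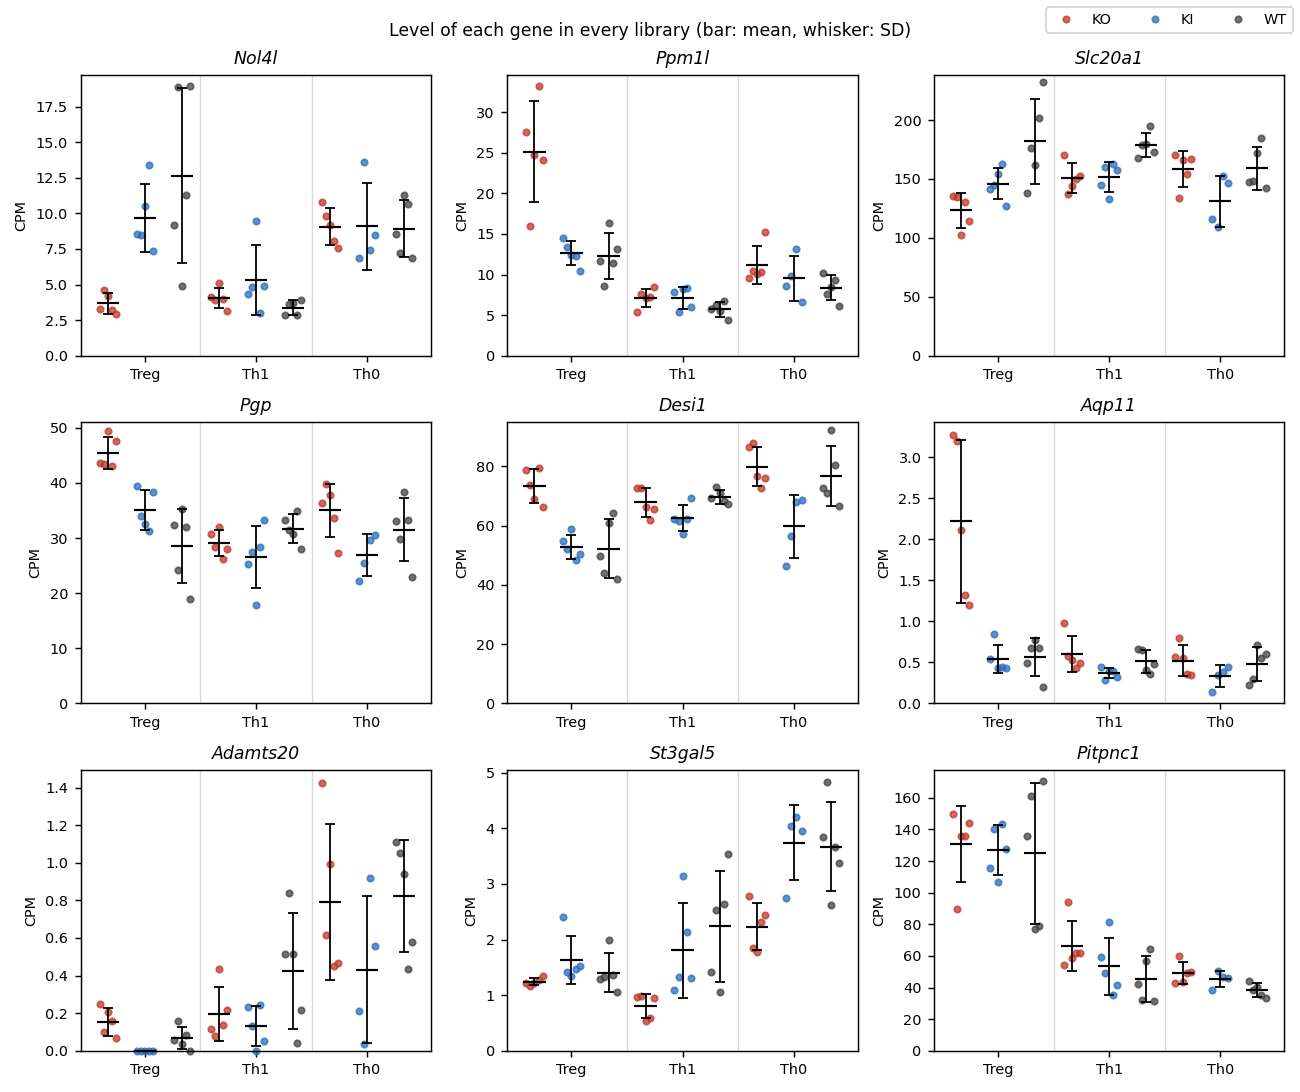
Level of each of the 9 genes in CPM (vertical axes, each starting at 0) in all 44 libraries, by culture and, within a culture, by genotype (KO red, KI blue, WT dark grey). Points are libraries, bars are group means and whiskers the SD. The Treg KO libraries of Nol4l, at 2.96 to 4.62 CPM, lie below all other Treg libraries, and those of Aqp11, at 1.19 to 3.27 CPM, lie above all other libraries.

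Among the transporters, Slc20a1 (chromosome 2, 129198764 to 129211616, plus strand, GRCm38) was lower in KO than in WT Treg cultures. Its level was 135.6, 134.6, 102.1, 130.4 and 114.3 CPM in Treg KO libraries 1 to 5, against 141.1, 145.1, 154.1, 162.4 and 127.3 CPM in Treg KI and 137.9, 175.99, 161.6, 201.5 and 232.1 CPM in Treg WT. All Treg KO libraries lay below all Treg WT libraries, while KO and KI overlapped through Treg KI 5. On the log2 scale the fold change was -0.56 ± 0.11 (SE) for KO against WT, -0.24 ± 0.11 for KO against KI and -0.32 ± 0.11 for KI against WT, so KI lay between the others in Treg. The means had the same order in Th1 cultures, with KO and KI nearly equal, but not in Th0 cultures. Slc20a1 averaged 150.8 CPM in Th1 KO, 151.7 CPM in Th1 KI and 179 CPM in Th1 WT. In Th0 cultures KI was lowest, at 130.9 CPM, with KO at 158.4 CPM and WT at 158.9 CPM. Exons of Slc20a1 overlap those of 9830144P21Rik on the opposite strand, which averaged 7.22 CPM and differed by -0.68 ± 0.15 for KO against WT in Treg cultures. The libraries mark strand, but whether the authors counted by strand is not known from the labels, so reads of the overlap cannot be assigned with certainty.

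Aqp11 (chromosome 7, 97724006 to 97738289, minus strand) had the largest relative difference between KO and WT Treg cultures of the 9 genes, at a low level. It stood at 3.27, 3.20, 2.11, 1.32 and 1.19 CPM in Treg KO, against 0.539, 0.839, 0.435, 0.444 and 0.433 CPM in Treg KI and 0.490, 0.673, 0.774, 0.675 and 0.192 CPM in Treg WT. The lowest KO library was above the highest KI and WT libraries, but the KO libraries differed among themselves by more than the whole KI or WT range. Fold changes on the log2 scale were 1.98 ± 0.36 for KO against WT, 2.04 ± 0.36 for KO against KI and -0.06 ± 0.35 for KI against WT. Behind these values were 1066 counts in the 5 KO libraries, 272 in the 5 KI libraries and 259 in the 5 WT libraries.

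Of the phosphatases, Ppm1l (chromosome 3, 69316861 to 69560802, plus strand), the gene with both sites printed above, averaged 25.1 ± 6.22 CPM in Treg KO, 12.6 ± 1.4997 CPM in Treg KI and 12.2 ± 2.81 CPM in the Treg WT libraries (SD, n = 5 each). The single libraries held 27.6, 16.04, 24.8, 33.2 and 24.1 CPM in Treg KO, 14.5, 13.4, 12.4, 12.3 and 10.5 CPM in Treg KI and 11.7, 8.61, 16.3, 11.5 and 13.1 CPM in Treg WT. All KO libraries were above all KI libraries, and KO and WT overlapped through Treg KO 2 and Treg WT 3, both among the libraries low in Foxp3. As log2 fold changes these were 1.04 ± 0.19 for KO against WT and 0.99 ± 0.19 for KO against KI, and became 1.28 ± 0.22 and 1.1009 ± 0.20 without the 4 libraries low in Foxp3.

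Pgp (chromosome 17, 24470392 to 24473110, plus strand) differed by less and in a graded way. It stood at 43.5, 43.5, 49.5, 43.03 and 47.7 CPM in Treg KO, at 39.5, 33.998, 32.5, 31.3 and 38.4 CPM in Treg KI and at 32.4, 24.1, 35.2, 31.9 and 18.9 CPM in Treg WT. The KO libraries lay above all others, and the KI and WT libraries overlapped. Its log2 fold change was 0.67 ± 0.14 for KO against WT, 0.37 ± 0.14 for KO against KI and 0.30 ± 0.14 for KI against WT.

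The lipid genes showed little or no difference between genotypes in Treg cultures. Pitpnc1 (chromosome 11, 107207892 to 107470699, minus strand) averaged 130.95 ± 23.9 CPM in Treg KO, 126.7 ± 15.8 CPM in Treg KI and 124.8 ± 44.6 CPM in Treg WT. The log2 fold change was 0.07 ± 0.21 for KO against WT and 0.05 ± 0.21 for KO against KI. The largest difference of Pitpnc1 between genotypes was in Th1 cultures, at 0.54 ± 0.21 for KO against WT, where the libraries overlapped.

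St3gal5 (chromosome 6, 72097592 to 72154571, plus strand) had its largest difference between KO and the other genotypes in Th1 cultures. In Th1 cultures it stood at 0.965, 0.981, 0.541, 0.586 and 0.947 CPM in KO, against 1.096, 1.34, 3.15, 2.13 and 1.31 CPM in KI and 1.42, 2.54, 1.07, 2.64 and 3.54 CPM in WT. All Th1 KO libraries lay below all Th1 KI and Th1 WT libraries. The log2 fold change was -1.48 ± 0.27 for KO against WT and -1.16 ± 0.27 for KO against KI in Th1, and -0.72 ± 0.27 and -0.74 ± 0.28 in Th0. In Treg cultures it was -0.18 ± 0.27 and -0.39 ± 0.27, with overlapping libraries.

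Desi1 (chromosome 15, 81992523 to 82033862, minus strand) was higher in Treg KO than in both other genotypes by similar amounts. Its level was 78.9, 73.7, 68.99, 79.3 and 66.3 CPM in Treg KO, 54.9, 52.03, 58.8, 48.4 and 50.4 CPM in Treg KI and 49.9, 44.02, 60.9, 64.2 and 41.9 CPM in Treg WT. No KO library overlapped a KI or WT library, and the WT libraries nearest to KO were Treg WT 3 and Treg WT 4. The log2 fold change was 0.49 ± 0.10 for KO against WT and 0.47 ± 0.10 for KO against KI. Desi1 shares exon sequence with Xrcc6 on the opposite strand, which averaged 93.8 CPM and differed by 0.24 ± 0.15 and 0.26 ± 0.15 in the same comparisons, so part of the reads is uncertain.

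Adamts20 (chromosome 15, 94270163 to 94465418, minus strand) was near the limit of detection in Treg cultures. The 5 Treg KO libraries held 73 counts in all, 7 to 22 each, the 5 Treg KI libraries 0 and the 5 Treg WT libraries 28, 0 to 10 each. Against a floor of 3 counts per library, which stood at 0.0293 CPM in Treg KI and covers counting error only, the mean of 0.155 CPM in Treg KO was at least 5.30-fold higher. In KO against WT the log2 fold change was 1.2498 ± 0.80 and the libraries overlapped. In Th0 cultures the gene was better covered, with 428 counts in KO, 177 in KI and 415 in WT, and the libraries of all genotypes overlapped.

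Nol4l (chromosome 2, 153407462 to 153529971, minus strand) was lower in every Treg KO library than in any Treg KI or Treg WT library. It stood at 3.30, 4.62, 4.22, 3.24 and 2.96 CPM in Treg KO, against 8.53, 8.49, 10.5, 13.4 and 7.34 CPM in Treg KI and 9.19, 18.9, 4.93, 11.3 and 18.9 CPM in Treg WT. The WT libraries were the most scattered, and Treg WT 3, low in Foxp3, came closest to KO. The log2 fold change was -1.78 ± 0.27 for KO against WT, -1.40 ± 0.27 for KO against KI and -0.39 ± 0.26 for KI against WT. In Th1 and Th0 cultures the KO libraries overlapped those of KI and WT, with log2 fold changes between -0.38 and 0.27.

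At an adjusted p under 0.05 (edgeR's quasi-likelihood test, Benjamini-Hochberg adjustment over all genes tested), 6 of the 9 genes were called for KO against WT in Treg cultures, where 0.169% of all genes were called, 0.105% higher and 0.064% lower. Ppm1l, Pgp, Desi1 and Aqp11 were higher and Nol4l and Slc20a1 lower. For KO against KI in Treg cultures 4 were called, Ppm1l, Aqp11 and Adamts20 higher and Nol4l lower, against 0.0229% of all genes, 0.0183% higher and 0.00457% lower. Libraries did not overlap for 5 of the 9 genes in KO against WT, against 1.12% of all genes tested, and for 6 in KO against KI, against 2.26%. The contrasts with KO are those by which the genes were picked, so these counts describe the choice. The genes called against WT were the same 6 without the 4 libraries low in Foxp3, and also when every culture of WT 4, KO 2 and KI 3 was left out. In that second setting 3 were called against KI, with Aqp11 lost, and without the 4 libraries low in Foxp3 5 were called against KI, Desi1 being added. When only the 10 libraries of the groups compared were fitted, none of the 8 genes then tested was called in either comparison. All but Nol4l also lost the call against WT without Treg WT 5, and Nol4l kept it with each of the 10 libraries left out in turn. Against KI the calls were less stable: of 10 such omissions Aqp11 kept its call in 3, Nol4l and Adamts20 in 2 each and Ppm1l in 1. Without a filter on low counts Desi1 and Pgp lost the call against WT, which left 4.

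None of the 9 genes was called for KI against WT in Treg cultures, where 0% of all genes were called by edgeR (1758 at an unadjusted p under 0.05), and DESeq2 called 12 genes including Adamts20. None was called for KO against WT or KO against KI in Th1 or Th0 cultures either, where edgeR called 0% of all genes in each comparison. Unadjusted p-values under 0.05 numbered 2000 and 1296 genes in Th1 and 1048 and 2684 in Th0, and DESeq2 called 19 and 42 genes in Th1 and 3 and 140 in Th0. Among the DESeq2 calls was St3gal5, lower in Th1 KO against both other genotypes, and Desi1, higher in Th0 KO than in Th0 KI. For KI against WT edgeR called none of the 9 in Th1, with 0.0274% of all genes (0.00914% higher, 0.0183% lower), or in Th0, with 0.512% (0.471% higher, 0.0411% lower), while DESeq2 called Desi1 lower in Th0 KI. The median absolute log2 fold change of the 9 genes was 0.67 for KO against WT in Treg, against 0.23 over all tested genes, 0.27 against 0.24 in Th1 and 0.12 against 0.19 in Th0. For KO against KI it was 0.47 in Treg, also with Adamts20 set at its bound, against 0.21 over all tested genes, 0.31 against 0.19 in Th1 and 0.38 against 0.26 in Th0. Whether a knockout effect differed between cultures was not tested, since the genes had been picked on it.

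**Figure D2:**
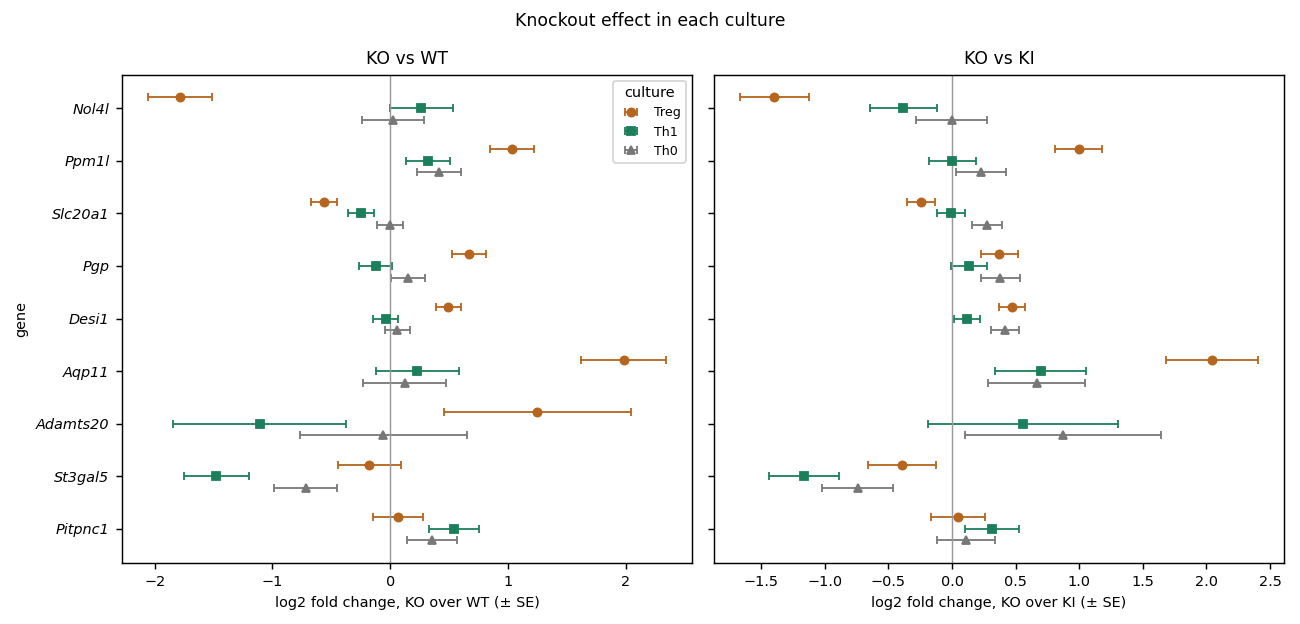
Log2 fold change of KO over WT (left) and KO over KI (right) with its SE (horizontal axes) for each gene, in Treg (circles), Th1 (squares) and Th0 (triangles) cultures, from the fit of all 44 libraries. Adamts20 in Treg is left out on the right because Treg KI had 0 counts. Aqp11 lies at 1.98 and 2.04 in Treg, and St3gal5 has its lowest values in Th1, at -1.48 and -1.16.

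Calls for the culture condition are set here beside those of all genes tested. Averaged over the 3 genotypes, 4 genes were higher and 3 lower in Treg than in Th0 cultures, where 55.6% of all genes were called (28.7% higher, 26.9% lower), so a share of 7 in 9 is not far from the background. In Treg against Th1, 5 were higher and 2 lower, with 53.9% of all genes called (27.3% higher, 26.6% lower). In Th1 against Th0, none was higher and 4 were lower, with 29.1% called (14.3% higher, 14.8% lower). The median absolute log2 fold change was 0.71 in Treg against Th0 (0.50 over all tested genes), 0.86 in Treg against Th1 (0.45) and 0.30 in Th1 against Th0 (0.28). The 6 myeloid and dendritic markers summed to 6.39 to 50.6 CPM in Treg libraries, at most 8.71 CPM in Th1 and at most 9.87 CPM in Th0, and their part in the culture effects was not tested. In bulk cultures, fewer cells that express a gene and less of its RNA per cell cannot be told apart.

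Pitpnc1 was the gene most clearly raised in Treg cultures. It ranged from 76.8 to 171 CPM with a median of 136.05 CPM in 15 Treg libraries, from 31.6 to 94.3 CPM with a median of 56.998 CPM in 15 Th1 libraries and from 33.5 to 60.2 CPM with a median of 43.99 CPM in 14 Th0 libraries. Every Treg library lay above every Th0 library. The log2 fold change was 1.53 ± 0.13 for Treg against Th0 (adjusted p = 1.65e-12) and 1.23 ± 0.12 for Treg against Th1 (adjusted p = 1.21e-10). It was similar in each genotype, at 1.42 ± 0.22 in KO, 1.48 ± 0.23 in KI and 1.70 ± 0.22 in WT for Treg against Th0. Th1 against Th0 gave 0.30 ± 0.13 and did not pass (adjusted p = 0.067), and passed with any of 8 single libraries left out.

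Ppm1l was higher in Treg than in Th0 cultures, with a log2 fold change of 0.71 ± 0.11 (adjusted p = 8.34e-07), and lower in Th1 than in Th0, at -0.53 ± 0.11 (adjusted p = 3.13e-04). Its median was 13.4 CPM in Treg, 6.80 CPM in Th1 and 9.66 CPM in Th0. All Treg libraries lay above all Th1 libraries, the lowest Treg library at 8.61 CPM and the highest Th1 library at 8.41 CPM. The order of the cultures was the same in each genotype, although the step between Treg and Th0 was 1.17 ± 0.19 in KO, 0.41 ± 0.20 in KI and 0.55 ± 0.19 in WT, so the mean includes the knockout difference.

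For Aqp11 the culture effect was largest within KO. The mean over genotypes was 1.01 ± 0.21 for Treg against Th0 (adjusted p = 9.35e-05) and 0.86 ± 0.21 for Treg against Th1 (adjusted p = 5.37e-04). Within genotypes, Treg against Th0 was 2.09 ± 0.36 in KO, 0.71 ± 0.38 in KI and 0.23 ± 0.35 in WT. The mean thus contains the knockout difference by which the gene was picked.

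Pgp was 0.30 ± 0.08 higher in Treg than in Th1 on the log2 scale (adjusted p = 0.00223) and 0.21 ± 0.08 higher than in Th0 (adjusted p = 0.0371). The call against Th0 was lost with any of 18 of the 29 libraries left out and without the 4 libraries low in Foxp3, where it was 0.14 (adjusted p = 0.176). It was also lost with other size factors (RLE), without a filter on low counts and without WT 4, KO 2 and KI 3. Fitting only the groups compared lost it too, while DESeq2 kept it. In WT alone both values were below 0, at -0.15 ± 0.14 and -0.14 ± 0.14, so the mean rests on KO and KI and includes the knockout difference. Slc20a1, the most abundant of the genes, was not called in any culture comparison, with log2 fold changes of -0.00 ± 0.06 for Treg against Th0, 0.10 ± 0.06 for Th1 against Th0 and -0.11 ± 0.06 for Treg against Th1. With WT 4, KO 2 and KI 3 left out in every culture, Treg against Th1 became -0.18 and passed (adjusted p = 0.0188), as it did at -0.14 without Treg WT 5 (adjusted p = 0.0468).

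Nol4l was lower in Th1 than in Th0 cultures, with a median of 3.92 CPM in Th1 and 8.52 CPM in Th0 and a log2 fold change of -1.11 ± 0.16 (adjusted p = 1.07e-06). The drop was -1.16 ± 0.27 in KO, -0.78 ± 0.28 in KI and -1.40 ± 0.27 in WT. In Treg against Th0 the genotypes went different ways, at -1.31 ± 0.27 in KO, 0.09 ± 0.28 in KI and 0.50 ± 0.27 in WT, and the mean of -0.24 ± 0.16 did not pass (adjusted p = 0.197). In Treg against Th1 the mean was 0.87 ± 0.15 (adjusted p = 8.28e-06), with -0.15 ± 0.27 in KO, 0.87 ± 0.27 in KI and 1.90 ± 0.27 in WT. Treg KO averaged 3.67 ± 0.714 CPM and Th1 KO 4.06 ± 0.712 CPM (SD, n = 5 each).

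St3gal5 and Adamts20 were highest in Th0 cultures. St3gal5 had a median of 1.35 CPM in Treg, 1.31 CPM in Th1 and 3.08 CPM in Th0, with log2 fold changes of -1.14 ± 0.16 for Treg against Th0 (adjusted p = 1.02e-07) and -1.08 ± 0.16 for Th1 against Th0 (adjusted p = 2.20e-06). Treg and Th1 did not differ by the test in the mean over genotypes, at -0.06 ± 0.16 (adjusted p = 0.764). The genotypes went different ways there. St3gal5 averaged 1.24 CPM in Treg and 0.804 CPM in Th1 within KO, 1.63 and 1.80 CPM within KI, and 1.41 and 2.24 CPM within WT. In Th0 it averaged 2.23 CPM in KO, 3.74 CPM in KI and 3.67 CPM in WT. The means thus include the knockout difference. Adamts20 was lower in Th1 than in Th0, at -1.55 ± 0.43 (adjusted p = 0.0066). In Treg against Th0 it was -2.34 ± 0.76 in KO and -3.65 ± 0.82 in WT, and in KI, where Treg had 0 counts, the floor puts Treg at least 14.7-fold lower, or at least 9.18-fold lower without Th0 KI 4, the highest of the 4 Th0 KI libraries. The mean over genotypes was called for Treg against Th0 (adjusted p = 9.45e-09) and Treg against Th1 (adjusted p = 1.22e-05), and its size is not given because of the 0 counts.

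Averaged over genotypes, Desi1 changed little with culture. It was -0.29 ± 0.06 on the log2 scale in Treg against Th0 (adjusted p = 1.40e-04) and -0.18 ± 0.06 in Treg against Th1 (adjusted p = 0.0101). Within genotypes it was largest in WT, at -0.56 ± 0.10 for Treg against Th0, while KO gave -0.12 ± 0.10 and KI -0.18 ± 0.11. All Treg WT libraries, at most 64.2 CPM, lay below all Th0 WT libraries, at least 66.8 CPM. The mean of Desi1 therefore includes the knockout difference. Xrcc6, its partner across the strand, changed by -0.68 ± 0.09 in the mean for Treg against Th0.

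**Figure D3:**
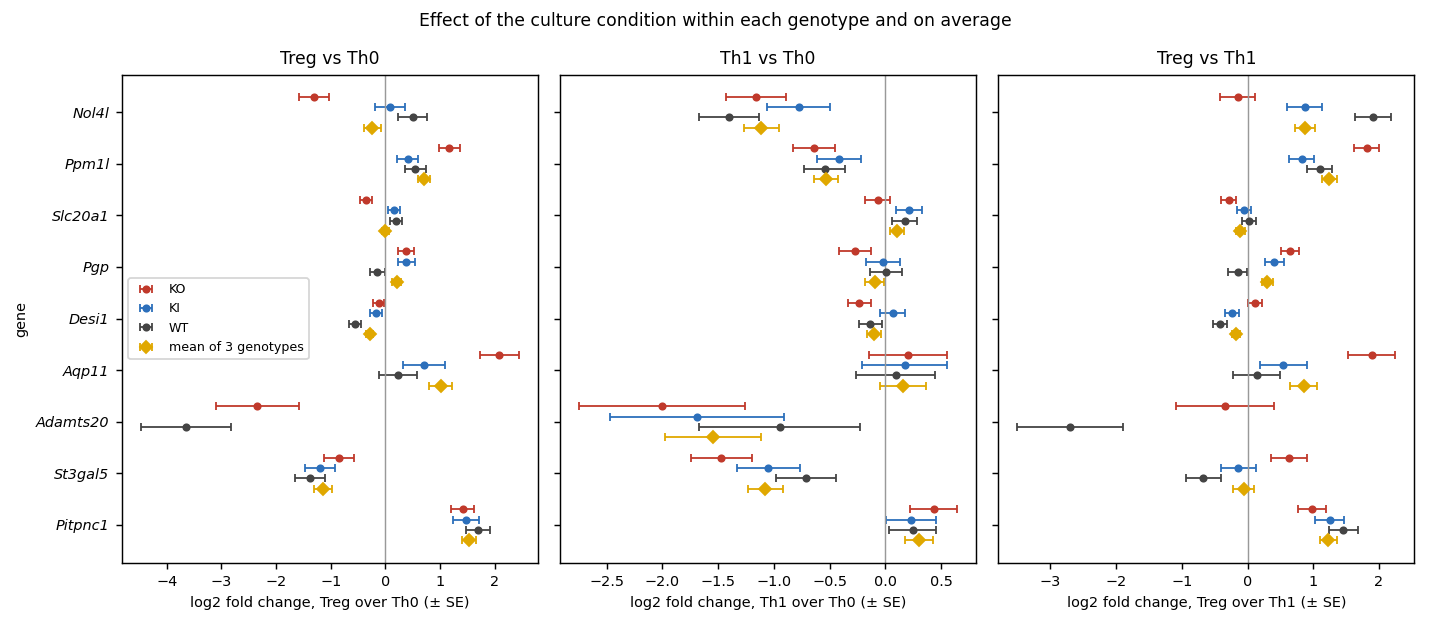
Log2 fold change of Treg over Th0 (left), Th1 over Th0 (middle) and Treg over Th1 (right) with its SE for each gene, within KO (red), KI (blue) and WT (dark grey) and as the mean of the 3 genotypes (yellow diamonds). Adamts20 is shown without KI and the mean where Treg enters, since Treg KI had 0 counts. Pitpnc1 lies near 1.5 in all genotypes for Treg over Th0, while Nol4l is at -1.31 in KO and 0.50 in WT.

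Relatives of these genes were read from the same fit. Among the tested relatives none was called in KO against WT or KO against KI in any culture, and the lowest adjusted p was 0.19. Culture effects were called in both directions, and the counts for Treg against Th0 stand beside a background of 28.7% of all genes higher and 26.9% lower. Among the 18 other PP2C-type phosphatases, 5 were higher and 7 lower in Treg than in Th0. Ppm1h averaged 73.4 ± 15.1 CPM in Treg and 32.6 ± 4.19 CPM in Th0 (SD over 15 and 14 libraries), a log2 fold change of 1.16 ± 0.09 (adjusted p = 3.23e-13). Ppm1e changed by -1.07 ± 0.17 (adjusted p = 1.68e-06). The other desumoylating isopeptidase gene, Desi2, rose in Th1 to 222 ± 37.4 CPM against 96.7 ± 11.3 CPM in Th0, a log2 fold change of 1.199 ± 0.08 (adjusted p = 6.63e-14), and was at 54.9 ± 6.89 CPM in Treg. Of the 9 tested SUMO protease relatives of Desi1, 2 were higher and 6 lower in Treg than in Th0.

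Of the 4 tested relatives of Slc20a1 in phosphate transport, 2 were higher and 2 lower in Treg than in Th0. Xpr1, the phosphate exporter, was 0.73 ± 0.08 higher in Treg than in Th0 (adjusted p = 1.85e-09), and Slc20a2, the sister importer, was -0.18 ± 0.07 (adjusted p = 0.033). Of the 9 tested relatives of Adamts20, 4 were higher and 1 lower in Treg than in Th0. Adamts6 averaged 184 ± 97.0 CPM in Treg and 36.9 ± 11.3 CPM in Th0, a log2 fold change of 2.29 ± 0.22 (adjusted p = 2.67e-11), and Adamts10 rose by 1.47 ± 0.12 (adjusted p = 3.60e-13). Of the 21 other ganglioside and sialyltransferase genes (22 entries, since St6galnac2 names 2 entries, neither called), 9 were higher and 6 lower in Treg than in Th0. Among them Ugcg, which makes the glucosylceramide upstream of GM3, rose by 0.77 ± 0.13 (adjusted p = 2.34e-06), and St3gal2 by 1.49 ± 0.13 (adjusted p = 3.51e-12). Of the 5 other phosphatidylinositol transfer genes, 2 were higher and 1 lower in Treg than in Th0, with Pitpna at 158 ± 10.2 CPM in Treg and 155 ± 15.3 CPM in Th0. Of 7 phosphatases related to Pgp, 1 was higher and 3 lower, and of 6 tested aquaporins other than Aqp11, 2 were higher and 3 lower. Aqp3 averaged 45.8 ± 30.9 CPM in Treg, 1.05 ± 1.11 CPM in Th1 and 0.113 ± 0.0865 CPM in Th0, a wider step than that of Aqp11. Nol4 was close to 0 in all libraries and was not tested.

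The genes with the most similar pattern over the 44 libraries were found by Pearson's correlation of log2 CPM, as a description. Pitpnc1 was most like Nipal3 (0.967), Zfp652 (0.966) and the cell-cycle inhibitor gene Cdkn1b (0.961). Desi1 was most like Tbl2 (0.904), Mthfd1l (0.853) and Vdac1 (0.838), and Pgp most like the mitotic kinase gene Aurkb (0.817), Fads1 (0.798) and Cenpb (0.782). These likenesses held within groups too, at 0.860, 0.888 and 0.824 for Pitpnc1, 0.819, 0.761 and 0.705 for Desi1 and 0.729, 0.701 and 0.742 for Pgp after group means were removed. Ppm1l was most like Serinc3 (0.85), Utp14b (0.842) and Ptch1 (0.829), which fell to 0.256, 0.63 and 0.33 within groups. Adamts20 was most like Nefh at 0.845, St3gal5 most like Bcl2a1d at 0.822 (uncertain, since its copies are near-identical), Nol4l most like Rflnb at 0.726, Slc20a1 most like Abl2 at 0.678 and Aqp11 most like Ikzf2 at 0.652. Within groups these values were 0.643 for Nefh, 0.464 for Bcl2a1d, 0.515 for Rflnb, 0.725 for Abl2 and only 0.194 for Ikzf2. The libraries share culture, depth and composition, which these values include.

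Within Treg cultures the level of Pitpnc1 was set beside that of Foxp3. Pitpnc1 stood at 76.8 to 106.8 CPM in the 4 libraries low in Foxp3 and at 115.3 to 171 CPM in the other 11, with no overlap. Since the libraries fall into separate clusters, the relation was tested within the 11, on log2 CPM after group means were removed. Values were permuted across genotypes without allowing for the removed means, so the permutation p-values given here tend to be too small. For Pitpnc1 in the 11 libraries Pearson's r was 0.629 (permutation p = 0.0392, adjusted p = 0.143 over the 9 genes) and Spearman's rho 0.691 (permutation p = 0.0221, adjusted p = 0.101). Pearson's r was 0.416 without Treg KO 3 and Treg KI 1, whose Foxp3 lay farthest from the median once group means were removed. The relation thus failed the correction and leaned on those libraries. St3gal5 had r = -0.653 (permutation p = 0.0207, adjusted p = 0.143), rho = -0.627 (permutation p = 0.0439, adjusted p = 0.132) and r = -0.539 without those libraries, and also failed the correction, as did all others. Pgp had rho = -0.691 (permutation p = 0.0223, adjusted p = 0.101), as large as that of Pitpnc1 but negative. For Aqp11 and Adamts20, both at low counts, r was -0.552 and -0.599, and -0.748 and -0.796 without those libraries. What remains for Pitpnc1 is the gap between the 4 libraries and the other 11, a division made after seeing the data, and the part of Foxp3 in the culture effect was not tested. Without the 4 low libraries the effect for Pitpnc1 was 1.68 ± 0.11 for Treg against Th0.

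**Figure D4:**
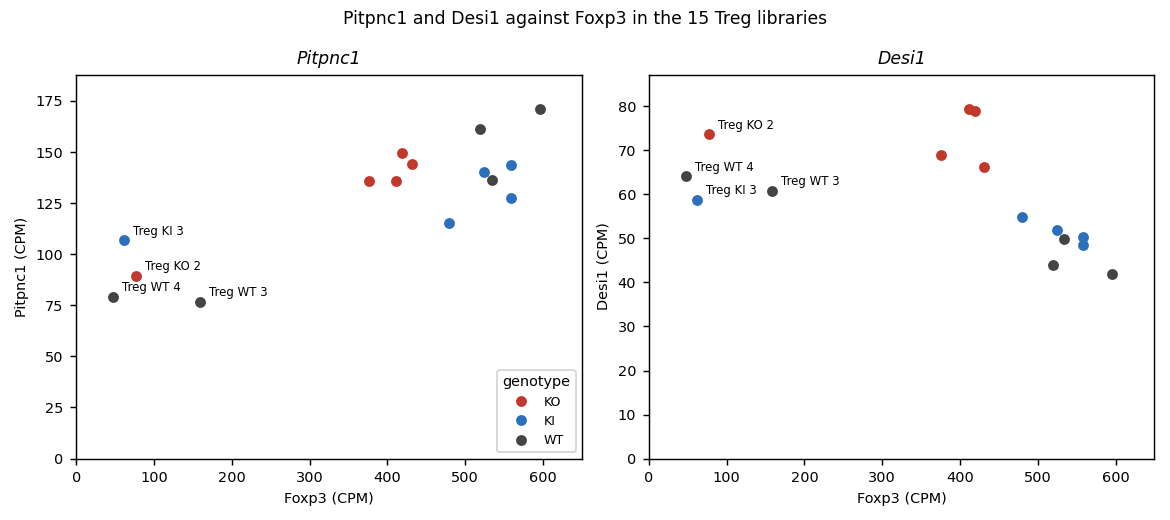
Level of Pitpnc1 (left) and Desi1 (right) in CPM against Foxp3 in CPM in the 15 Treg libraries, coloured by genotype (KO red, KI blue, WT dark grey), each point 1 library. The 4 labelled libraries have Foxp3 at 47.7 to 159 CPM and Pitpnc1 at 76.8 to 106.8 CPM. In Desi1 the KO libraries lie above all others at 66.3 to 79.3 CPM.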

How the data were processed

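The authors deposited whole-number counts per gene and sequencing lane, 88 lane columns for 44 poly(A) libraries, and the 2 lanes of a library were summed. The submitters' processing notes name the genome GRCh38 although the gene identifiers are those of mouse. No source used here gives the counting tool, its annotation or its strand setting. A deposited normalised table was not used.

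The test was the quasi-likelihood test of edgeR 4.0.16 (R 4.3.3), with a default filter on low counts by group, TMM factors, 1 model of 9 group means, Benjamini-Hochberg adjustment over 21873 genes and calls at 0.05. Culture effects are means over 3 genotypes. CPM values use TMM factors, and log2 CPM a prior count of 2. Annotation is GENCODE release M21 on GRCm38. The 9 genes and the lists of relatives were chosen with earlier results of these data known. The text names the 9 genes, genes that check the labels, overlapping genes, examples from the lists, and the 3 genes most like each of the 9 among those averaging at least 2 in log2 CPM, of which some are given. The fits were tested on simulated counts. Relations with Foxp3 used 100000 permutations across genotypes, two-sided.

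Same-numbered Th1 and Th0 libraries deviated together (correlations 0.185 to 0.494 in KO, 0.147 to 0.552 in KI and 0.245 to 0.422 in WT) and were read as pairs by this check alone, since no label explains the numbers. The main model does not use these pairs, so its p-values ignore them. The replicate block joined libraries of the same genotype and number for culture effects. For genotype comparisons it joined libraries of the same number across genotypes. Alternatives were other size factors (RLE), DESeq2 1.42.0, no filter, only the groups compared, a replicate block, each library left out, WT 4, KO 2 and KI 3 left out, and, chosen after seeing the data, 4 Treg libraries low in Foxp3 left out.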

Additional observations from a re-analysis of the deposited data

Results flagged for a closer look

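Of 80 groups of 4 or 5 libraries checked for a single library far from the rest, where chance alone flags about 1 in 20, 6 held one. Ppm1l was at 15.3 CPM in Th0 KO 5, against 9.57 to 10.5 CPM in the other Th0 KO libraries. Aqp11 was at 0.839 CPM in Treg KI 2, against 0.433 to 0.539 CPM in the others, and at 0.978 CPM in Th1 KO 1, against 0.428 to 0.575 CPM. St3gal5 was at 2.41 CPM in Treg KI 1, against 1.35 to 1.52 CPM. Pitpnc1 was at 89.4 CPM in Treg KO 2, against 135.6 to 149 CPM in the other Treg KO libraries, and at 94.3 CPM in Th1 KO 2, against 54.2 to 61.97 CPM in the other Th1 KO libraries. Treg KO 2 is one of the 4 libraries low in Foxp3.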

How the results depend on the processing

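Counts of genes called depended on the processing far more than the members' fold changes did. For KO against WT in Treg, where 37 genes were called, DESeq2 called 164, leaving out WT 4, KO 2 and KI 3 gave 226, leaving out the 4 Treg libraries low in Foxp3 (chosen after seeing the data) gave 1383, and fitting only the groups compared gave 0. For KO against KI in Treg, where 5 were called, the same settings gave 59, 13, 70 and 3. For KI against WT in Treg, where 0 were called, DESeq2 gave 12 and leaving out the libraries low in Foxp3 gave 8. Where edgeR called 0, DESeq2 called 19 for KO against WT and 42 for KO against KI in Th1, and 3 and 140 in Th0. For KI against WT in Th1, with 6 called, DESeq2 gave 458, leaving out WT 4, KO 2 and KI 3 gave 2 and only the groups compared 0. For KI against WT in Th0, with 0.512% of genes called, RLE factors gave 22, no filter 4, DESeq2 659, leaving out WT 4, KO 2 and KI 3 gave 1, the replicate block 20 and only the groups compared 0.

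With single libraries left out, the count ran from 2 (without Treg WT 5) to 195 (without Treg WT 3) for KO against WT, 0 to 5 for KO against KI and 0 to 2 for KI against WT in Treg. It ran from 0 to 3 for KO against WT and 1 to 283 (without Th1 KI 4) for KI against WT in Th1, and, both upper values without Th0 KI 4, from 0 to 268 for KO against KI and 0 to 1003 for KI against WT in Th0. The cause was not tested.

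Values near 0 that were not called changed sign. St3gal5 in Treg against Th1 was 0.0884 without WT 4, KO 2 and KI 3, 0.00642 with the replicate block, and -0.144 to 0.0202 with single libraries left out. Slc20a1 in Treg against Th0 was -0.0540 to 0.0256 with single libraries left out. The replicate block changed no call of the 9 genes; all pairs of Th1 and Th0 libraries correlated above 0.1, while pairs of Treg with Th0 or Th1 had their lowest values at 0.0816 to 0.107 and means of 0.159 to 0.243, and at least 3 of 4 or 4 of 5 Treg libraries of a group correlated best with their own number, a hint from the data and not the design. Between genotypes the correlations ran from -0.374 to 0.364. Adamts20 could not be fitted in the 3 Treg genotype comparisons when only the groups compared were used. Depth limits Adamts20 and Aqp11, and the few libraries per group limit all comparisons between genotypes.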
